A study of Mus musculus with 48 samples.

Results

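The 73 cytosolic ribosomal protein genes described here were taken from 22485 gene symbols on a mouse array by their symbols: Rpl or Rps with a number and at most one of the letters a, l, x or y, and Rplp0, Rplp1, Rplp2 and Rpsa. They comprised 47 genes of the large and 26 of the small ribosomal subunit and filled 164 rows of the table, which made 153 probes. For each gene the probe that was brightest on average across the 48 samples stood for the gene. RNA was measured in 48 wells after 24 h. Each well received 0.5 mL of Th2-455 T cells and 0.5 mL of a denser suspension of naive Balb/c splenocytes as antigen-presenting cells. Th2-455 is a nonclonal Th2-polarized line, made from CD4+ lymph node T cells of female Balb/c mice 8 to 12 weeks old that were immunized with Copaxone, and restimulated with it for 13 rounds. The 8 ACN samples came from 1 lot of a glatiramoid that is related to glatiramer acetate and chemically distinct from it, the 16 Glatopa samples from 4 lots and the 17 Copaxone samples from 9 lots of glatiramer acetate, all at 20 μg/mL. The 7 Media samples held mannitol and no glatiramoid. All 48 wells held cells of the same line, so p-values measured the spread between wells and not between mice or lines.

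Cytosolic ribosomes translate nuclear-encoded mRNAs, and each is built, largely in the nucleolus, from ribosomal RNA and proteins, most of them needed in equal numbers. Lymphocytes that leave the resting state enlarge and make more ribosomes. The mRNAs of ribosomal proteins are known for a terminal oligopyrimidine (TOP) tract, a C followed by further C or T letters at the first base of the transcript, through which growth signals control their translation. An array measures the amount of these mRNAs and not how much protein is made from them.

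Sequences around the annotated start show which members carry this tract, and they are given for members whose values follow. RefSeq promoter windows (build GRCm38.p6) were matched by symbol for 58 of the 73 members, with 70 windows in all. Each line runs 10 bases before the start and on to 30 bases in all, and capitals mark a C followed by at least 4 letters that are C or T.
Rpl35, chr2:39005112-39005141, minus strand: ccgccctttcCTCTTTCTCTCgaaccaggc
Rps10, chr17:27635225-27635254, minus strand: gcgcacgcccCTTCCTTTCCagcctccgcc
Rps6, chr4:86857348-86857377, minus strand: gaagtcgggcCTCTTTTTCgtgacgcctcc
Rpl28, chr7:4792955-4792984, plus strand: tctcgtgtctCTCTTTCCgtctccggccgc
Rpl38, chr11:114668570-114668599, plus strand: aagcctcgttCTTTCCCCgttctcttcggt
Rplp2, chr7:141447641-141447670, plus strand: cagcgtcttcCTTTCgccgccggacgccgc
Rplp0, chr5:115559457-115559486, plus strand: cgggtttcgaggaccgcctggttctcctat
Rps2, chr17:24720053-24720082, plus strand: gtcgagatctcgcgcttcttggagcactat
Rpl10l, chr12:66284382-66284411, minus strand: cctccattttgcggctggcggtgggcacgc
In the windows of Rpl35, Rps10, Rps6, Rpl28, Rpl38 and Rplp2 the tract began at the start base itself, and its length ran from 5 letters in Rplp2 to 11 in Rpl35. Such a tract began at the start base in 18.6% of the 70 member windows, against 2.51% of all 32851 promoter windows. Within 2 bases of the start it was found in 30.0% of member windows, against 8.96% of all. The search was made on the strand of the gene, and where no tract was found, as for Rplp0 and Rps2, these letters only do not lie at the annotated start. Of the 20 matched members that differed from Media with at least one glatiramoid in the comparisons that follow, 8 had a tract within 2 bases, against 12 of the 38 matched members that did not.

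Ribosomal protein mRNAs were among the brightest on the arrays. The median member had a mean log2 value of 12.7 over all samples, against 4.93 for the median of all 39430 probes. Counting only the brightest probe of each gene, 22 members lay among the 100 brightest probes and 57 among the brightest 500. Rplp0 (mean 14.5), Rps20 (14.4) and Rps12 (14.3) were the brightest members, and Rpl39l, Rpl3l and Rps4l the dimmest, with means of 4.83, 4.84 and 5.46. The arrays had been quantile-normalized, so a value depends largely on the rank of a probe on its array. Ranks here were taken after repeated spots had been averaged, and equal ranks did not give equal values on every array. Rank 31 was at 13.9 in Media replicate 5 (Rplp2) and at 14.1 in Glatopa lot 2 replicate 1 (Rpl8). A difference in value between groups is therefore not a difference in rank alone. The median log2 value over the arrays was 15.4 at rank 1, 14.6 at rank 10, 13.5 at rank 100 and 12.0 at rank 500. A member near the top therefore had less room to rise than a dimmer one, though Rplp0, the brightest, had a Media mean of 14.06 against a highest value of 15.44. Near the top, a step of a few ranks changed a value as much as a far longer step further down. Spread within groups was also wider at this brightness: the median within-group SD was 0.284 for members, 0.318 for the 844 probes with a mean above 11 and 0.161 for all probes. Levels are not compared between genes beyond this order, because probes differ in how they bind.

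In the values as deposited, part of the family rose against Media, more members with Glatopa than with Copaxone or ACN passing the test. With Glatopa, 23 of 73 members were called higher and 1 lower, where a call is an adjusted p under 0.05 in limma (two-sided, Benjamini-Hochberg over all 39430 probes). That is 32.9% of members, against 18.9% of all probes called in either direction, 10.3% higher and 8.56% lower. With Copaxone, 9 members were called higher and 1 lower, or 13.7%, against 16.2% of all probes in either direction, 8.71% higher and 7.46% lower. With ACN, 5 were called higher and 0 lower, or 6.85%, against 7.08% of all probes, 3.73% higher and 3.36% lower. With the lot as a random block (estimated correlation 0.19), 0 members were called with ACN. All ACN samples came from 1 lot and so formed a single block, and this fit cannot separate lot from treatment. Thus the share of members called in either direction stood above that of all probes for Glatopa and close to it for Copaxone and ACN. The share called higher was 31.5%, 12.3% and 6.85% with Glatopa, Copaxone and ACN, against 10.3%, 8.71% and 3.73% of all probes. These shares were not tested against each other. Among the 73 members with ACN, 15 had an unadjusted p under 0.05 in either direction, as had 17.6% of all probes. The mean over the 73 members ran from 12.07 through a median of 12.20 to 12.28 with ACN, from 12.18 through 12.32 to 12.38 with Glatopa and from 12.12 through 12.28 to 12.36 with Copaxone, against 12.03 through 12.09 to 12.22 in Media, and all groups overlapped. The count with ACN was 2 when ACN replicate 1, 5, 6 or 8 was left out and 3 without ACN replicate 2, 3 or 7 or any 1 Media sample, and that with Copaxone was 14 without Copaxone lot 3 replicate 2. The 3 comparisons share the 7 Media samples and are not independent of each other.

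These counts depended on how the arrays were scaled. The median log2 difference of the members was 0.0716 with ACN, 0.177 with Glatopa and 0.175 with Copaxone, against -0.0047, -0.0041 and -0.0034 for all probes. After cyclic loess normalization of the same values the member medians were 0.00986 with ACN, 0.0548 with Glatopa and 0.0262 with Copaxone. The calls then numbered 2 higher and 0 lower with ACN (2.85% and 4.08% of all probes), 6 higher and 3 lower with Glatopa (8.33% and 9.93%), and 1 higher and 3 lower with Copaxone (6.59% and 8.99%). The members still called higher were Rpl8 and Rplp0 with ACN, Rpl10, Rpl21, Rpl41, Rpl8, Rplp0 and Rps2 with Glatopa, and Rplp0 with Copaxone. Rpl10l, Rpl23 and Rps27 were called lower with Glatopa and with Copaxone. Rpl23 and Rps27 were not called in the deposited values, where Rps27 differed from Media by -0.08 with Glatopa and -0.23 with Copaxone. On normal scores of the ranks, 0 members were called higher with ACN, 6 with Glatopa and 1 with Copaxone, and Rplp0 was among them with Glatopa and Copaxone. So Rplp0 was called higher with Glatopa and Copaxone under all 3 scalings, and with ACN under 2 of them. The share of all probes called on normal scores is not given here, so those counts have no background beside them. Calls with ACN also fell on that scale in gene lists described below, from 18 to 3 for assembly factors and from 16 to 0 for mitochondrial ribosomal proteins.

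**Figure D1:**
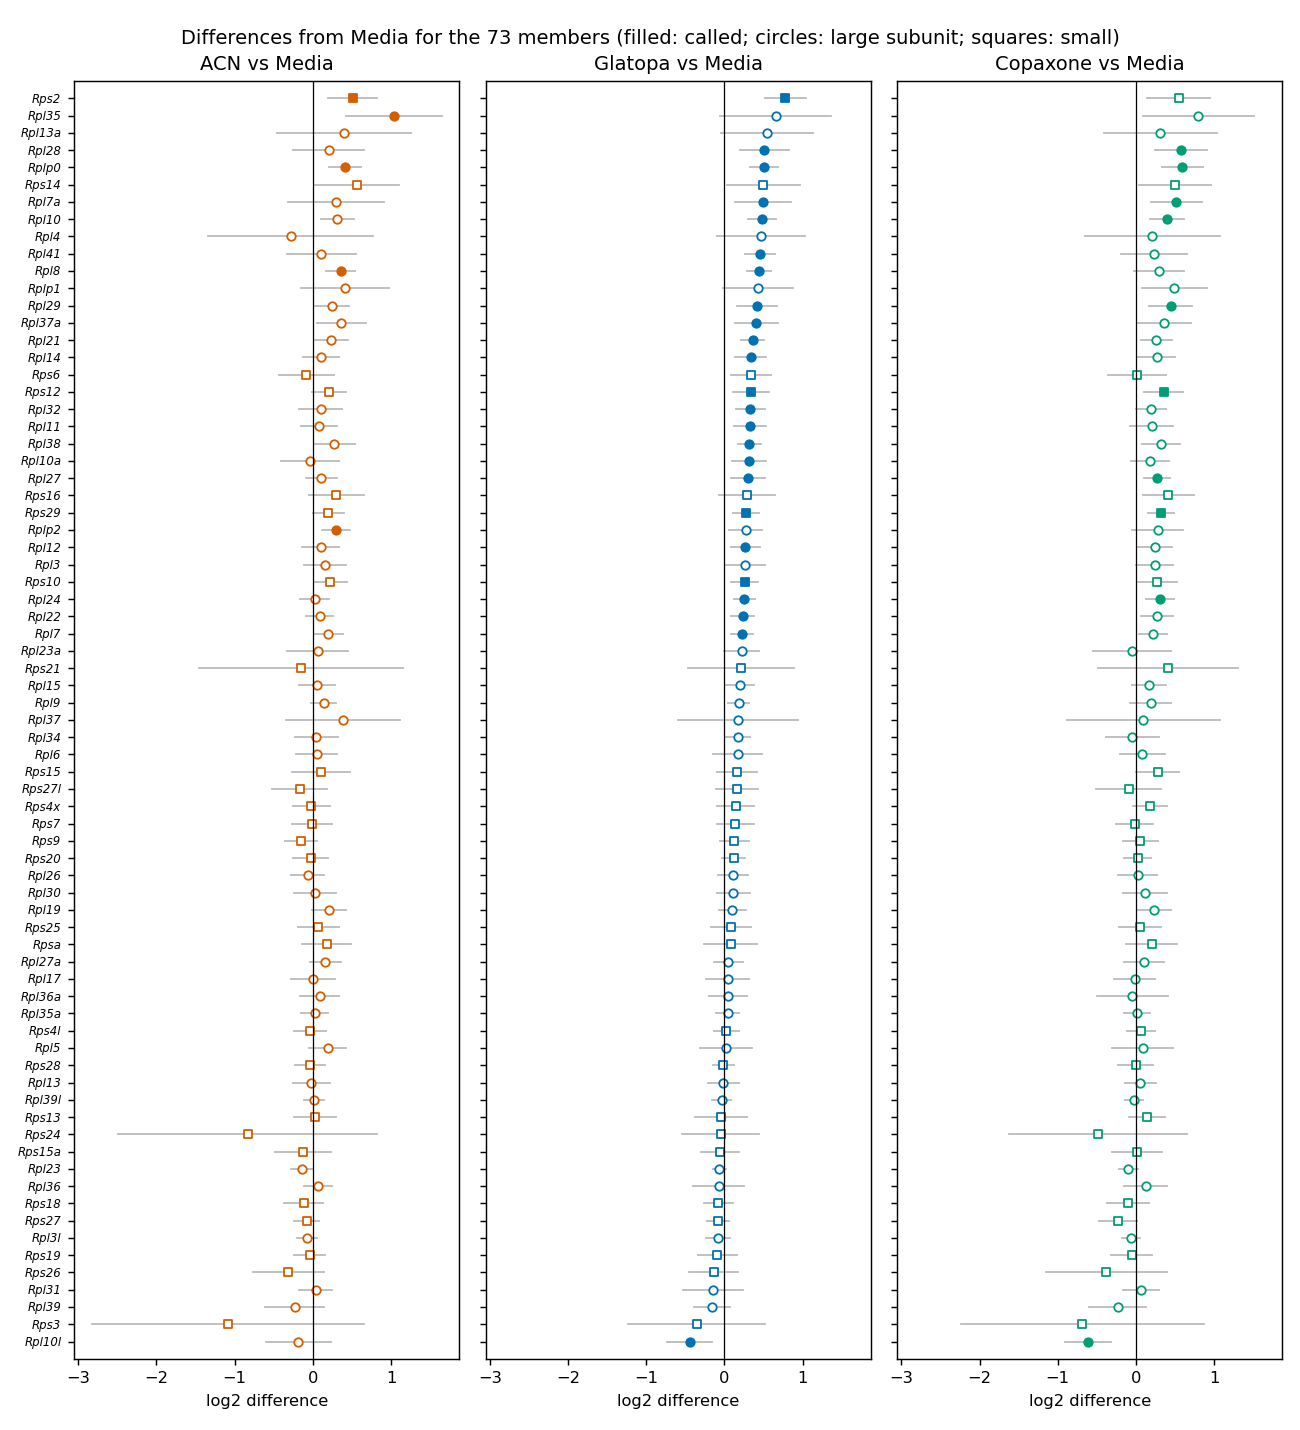
Log2 difference from Media (horizontal axis) of each of the 73 members (rows, ordered by the Glatopa difference) for ACN, Glatopa and Copaxone, with 95% intervals as grey lines. Filled symbols were called, circles are large subunit and squares small subunit members, and the called members lie mostly in the upper part (5 higher with ACN, 23 with Glatopa, 9 with Copaxone in the deposited values, against 2, 6 and 1 after cyclic loess).

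Rplp0, the scaffold of the ribosomal stalk that recruits elongation factors, was the only member called higher with all 3 glatiramoids when the brightest probe stood for each gene. With the mean over the probes of a gene, Rplp0 was not called with ACN (0.196, adjusted p = 0.171), and Rpl10 and Rps2 were called with all 3. Its log2 values ran from 14.29 through a median of 14.43 to 14.81 in ACN samples, from 14.27 through 14.57 to 14.91 in Glatopa samples and from 14.20 through 14.57 to 15.23 in Copaxone samples, against 13.79 through 14.12 to 14.29 in Media. Above the highest Media sample lay 7 of 8 ACN, 15 of 16 Glatopa and 15 of 17 Copaxone samples. The rise was 1.33-fold with ACN (log2 difference 0.41, SE 0.0969, limma adjusted p = 0.0137), 1.42-fold with Glatopa (0.51, SE 0.0863, adjusted p = 7.21e-05) and 1.51-fold with Copaxone (0.595, SE 0.126, adjusted p = 0.0011). Its median rank on the array was 14 with ACN, 9.5 with Glatopa and 10 with Copaxone, against 27 in Media, so its change took place among the brightest probes. Another Rplp0 probe, with a mean of 12.7, rose with Glatopa (0.25, adjusted p = 0.00166) and Copaxone (0.21, adjusted p = 0.021) and differed by 0.04 with ACN (adjusted p = 0.889), while a further probe, at 12.8, was not called in any of the 3 comparisons.

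Rplp1 and Rplp2 form the dimers that attach to Rplp0 at the stalk. Rplp2 ran from 13.76 through 13.99 to 14.38 with ACN, from 13.64 through 14.13 to 14.47 with Glatopa and from 12.72 through 14.13 to 14.69 with Copaxone, against 13.66 through 13.76 to 13.90 in Media. It was called only with ACN, at 1.23-fold (adjusted p = 0.0453), a call lost in 12 of 15 fits that left out 1 sample. Its differences with Glatopa and Copaxone were of like size and did not pass the test, with a wider spread among those samples (SD 0.273 and 0.436, against 0.0839 in Media). Rplp1 differed from Media by 0.41 with ACN, 0.43 with Glatopa and 0.49 with Copaxone, and none passed (adjusted p = 0.493, 0.199 and 0.113), with 1 Media sample at 10.75 and the next at 12.07.

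Most of the other members called belonged to the large subunit, which had 4 of 47 members higher with ACN, 19 with Glatopa and 7 with Copaxone. For the small subunit the counts were 1 of 26, 4 and 2, and the difference between subunits was not tested. All 9 members higher with Copaxone were also called higher with Glatopa, namely Rpl10, Rpl24, Rpl27, Rpl28, Rpl29, Rpl7a, Rplp0, Rps12 and Rps29. Leaving out 1 sample ended the Glatopa call of Rpl27 in 18 of 23 fits and the Copaxone call of Rps12 in 14 of 24. With the mean over the probes of a gene, Rpl24, Rpl27, Rpl29, Rpl7a, Rps12 and Rps29 were not called with Copaxone (adjusted p from 0.0835 to 0.985). The 14 called higher with Glatopa and not with Copaxone were Rpl10a, Rpl11, Rpl12, Rpl14, Rpl21, Rpl22, Rpl32, Rpl37a, Rpl38, Rpl41, Rpl7, Rpl8, Rps10 and Rps2. Across the 23 Glatopa-higher members the median log2 difference was 0.206 with ACN, 0.337 with Glatopa and 0.293 with Copaxone, which describes members chosen by the Glatopa comparison and tests nothing.

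Rpl8 and Rpl10 help shape the centre where peptide bonds form, and Rpl10 joins late in the maturation of the large subunit. Rpl8 ran from 13.58 through 13.88 to 14.09 with ACN, from 13.71 through 13.98 to 14.19 with Glatopa and from 12.66 through 13.87 to 14.34 with Copaxone, against 13.22 through 13.50 to 13.71 in Media. It was called at 1.28-fold with ACN (adjusted p = 0.0169) and 1.36-fold with Glatopa (adjusted p = 3.78e-05), with 7 of 8 and 15 of 16 samples above every Media sample. The Copaxone samples spread on both sides of Media, and Rpl8 was not called there. Rpl10 ran from 13.48 through 13.82 to 14.12 with ACN, from 13.68 through 14.04 to 14.32 with Glatopa and from 13.27 through 13.92 to 14.34 with Copaxone, against 13.06 through 13.54 to 13.72 in Media. It rose 1.40-fold with Glatopa (adjusted p = 0.000144) and 1.32-fold with Copaxone (adjusted p = 0.00723), and the ACN difference of 0.32 did not pass (adjusted p = 0.0718). The other Rpl10 probes, at means of 13.8 and 13.6, differed from Media in the same direction in all 3 comparisons, and both were called with Glatopa (0.27 and 0.52). The one at 13.6 was also called with ACN (0.43, adjusted p = 0.0424), as was the mean over the Rpl10 probes (0.297, adjusted p = 0.00622).

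The largest fold change among the members called with Glatopa was that of Rps2, a small subunit protein near the mRNA entry. It ran from 11.87 through 12.31 to 12.70 with ACN, from 11.98 through 12.60 to 13.02 with Glatopa and from 11 through 12.22 to 13.13 with Copaxone, against 11.17 through 11.92 to 12.18 in Media. It rose 1.71-fold with Glatopa (0.775, SE 0.127, adjusted p = 4.42e-05) and 1.42-fold with ACN (0.51, adjusted p = 0.0483), and all 4 groups overlapped. The ACN call was lost in 12 of 15 fits that left out 1 sample. With Copaxone the difference of 0.55 had an adjusted p of 0.06, and Rps2 was called at 0.67 (adjusted p = 0.00533) without the 4 arrays that stand apart, described under the spread within groups.

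Rpl35 had the largest difference among members called with ACN, at 2.05-fold (1.04, SE 0.291, adjusted p = 0.0386). It ran from 13.58 through 13.87 to 14.17 with ACN, from 11.43 through 13.82 to 14.17 with Glatopa and from 11.16 through 13.95 to 14.25 with Copaxone, against 11.69 through 13.45 to 13.69 in Media. Media samples fell into 3 between 11.69 and 12.06 and 4 between 13.45 and 13.69, and the low values also occurred with Glatopa and Copaxone but in no ACN sample. The call was lost in 10 of 15 fits that left out 1 sample. Rpl41, the smallest ribosomal protein, ran from 13.32 through 13.74 to 13.97 with Glatopa, against 12.64 through 13.38 to 13.59 in Media, with 15 of 16 Glatopa samples above Media (1.37-fold, adjusted p = 0.000554). In ACN and Copaxone samples it reached down to 12.11 and 11.83, and was not called. Rpl21 was called with Glatopa at a dim level (mean 6.25, against 5.89 in Media, adjusted p = 0.000403). With the mean over its probes, Rpl21 was not called with Glatopa (0.098, limma adjusted p = 0.185). Rpl28 rose 1.43-fold with Glatopa and 1.49-fold with Copaxone (adjusted p = 0.0159 and 0.0126), Rpl29 rose 1.33-fold and 1.36-fold (0.0145 and 0.0217) and Rpl7a rose 1.41-fold and 1.43-fold (0.0477 and 0.0249). The Rpl7a call with Glatopa was lost in 15 of 23 fits that left out 1 sample, and without Media replicate 5 its log2 difference was 0.277 with Glatopa and 0.295 with Copaxone, called with neither (adjusted p = 0.156 and 0.0574).

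**Figure D2:**
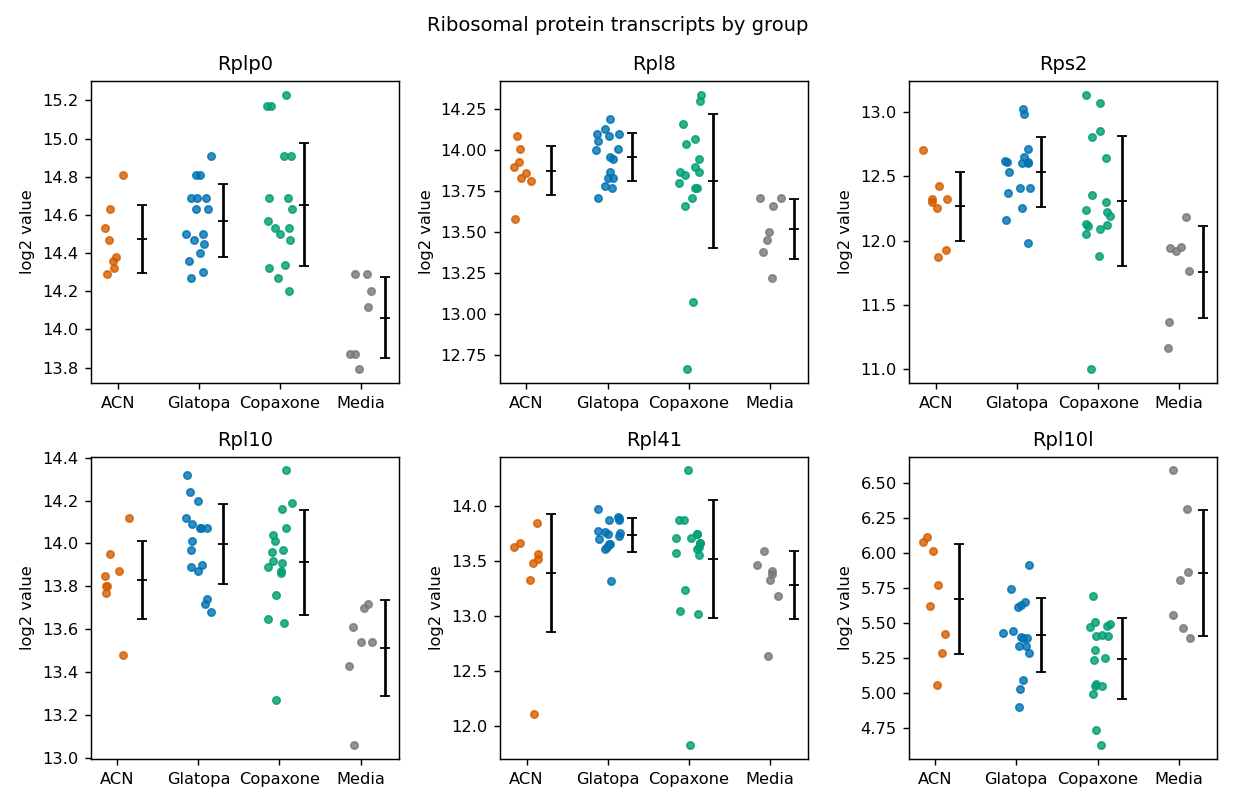
Log2 value (vertical axis, not starting at 0) of Rplp0, Rpl8, Rps2, Rpl10, Rpl41 and Rpl10l in each of 8 ACN, 16 Glatopa, 17 Copaxone and 7 Media samples, with mean and SD in black. Glatopa samples of Rplp0 and Rpl8 lie above Media in 15 of 16 cases, and Rpl10l lies lower with Copaxone (mean 5.25) and Glatopa (5.42) than in Media (5.86).

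Members with known roles outside the ribosome were mixed. Rpl11 and Rpl5 carry the 5S ribosomal RNA into the large subunit and bind Mdm2, the ubiquitin ligase of p53. Rpl11 rose 1.25-fold with Glatopa (adjusted p = 0.0209), while Rpl5 differed by 0.19 with ACN, 0.02 with Glatopa and 0.08 with Copaxone (adjusted p = 0.425, 0.963 and 0.852). Rpl22, needed for the development of αβ T cells in mice, rose 1.18-fold with Glatopa (adjusted p = 0.0218). Rpl38, needed for the translation of Hox mRNAs in mouse embryos, rose 1.25-fold with Glatopa (adjusted p = 0.00154). With the mean over the probes of a gene, Rpl11, Rpl22 and Rpl38 differed by -0.0288, -0.0141 and 0.0888 with Glatopa. None of them was then called (limma adjusted p = 0.961, 0.917 and 0.501). Rpl13a, which leaves the ribosome in the interferon-γ response of human monocytes, differed by 0.40, 0.55 and 0.31 with ACN, Glatopa and Copaxone, none past the test, with 1 Media sample at 8.79 and the next at 11.90.

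Rps6, the small subunit protein phosphorylated by S6 kinases, had the smallest unadjusted p between Glatopa and Copaxone. It ran from 11.40 through 12.44 to 12.58 with ACN, from 12.18 through 12.71 to 13.21 with Glatopa and from 11.05 through 12.54 to 13.07 with Copaxone, against 11.76 through 12.47 to 12.76 in Media. It was not called against Media with Glatopa (0.34, adjusted p = 0.0562), nor with ACN (-0.08, adjusted p = 0.876) or Copaxone (0.02, adjusted p = 0.976). Rps14 and Rps19 are known from human anaemias with impaired ribosome production. Rps14 differed by 0.56, 0.50 and 0.50 with ACN, Glatopa and Copaxone (adjusted p = 0.267, 0.146 and 0.148), and Rps19 by -0.04, -0.09 and -0.05 (adjusted p = 0.90, 0.72 and 0.862). Rpsa, also known as the laminin receptor, differed by 0.18, 0.08 and 0.20 and was not called.

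Some members are known as copies of another member or from particular tissues, and Rpl10l, Rpl3l and Rpl39l among them were dim. Rpl10l, a retrocopy of Rpl10 known from mouse testis, was the only member called lower in the deposited values. It ran from 5.06 through 5.70 to 6.12 with ACN, from 4.90 through 5.40 to 5.92 with Glatopa and from 4.63 through 5.31 to 5.70 with Copaxone, against 5.40 through 5.81 to 6.59 in Media. Its log2 difference from Media was -0.44 with Glatopa (SE 0.139, adjusted p = 0.0239) and -0.61 with Copaxone (SE 0.144, adjusted p = 0.00317), with overlapping groups, and -0.19 with ACN. The Glatopa call was lost without Media replicate 4 or 7. The median of all probes was 4.93, and signal over background was not used here. Rpl3l, known from striated muscle, and Rpl39l, known from testis, stayed between 4.43 and 5.16 in all samples, and neither was called. Rps27l, a paralog of Rps27 that p53 induces, was not dim, with a mean of 10.4, and differed by -0.17, 0.16 and -0.09 with ACN, Glatopa and Copaxone.

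Differences from Media were larger among bright members. In the 24 brightest members, with means from 13.3 to 14.5, the median log2 difference was 0.202 with ACN, 0.322 with Glatopa and 0.287 with Copaxone, and 4, 16 and 6 of them were called higher. In the 25 dimmest members, with means from 4.83 to 12.2, the medians were -0.03, 0.04 and -0.02, and 0, 2 and 1 were called higher. For the 24 members between them the medians were 0.05, 0.15 and 0.10. Probes of other genes at this brightness give the comparison: among 124 of them with a mean of at least 13, the median was 0.02 with ACN, 0.106 with Glatopa and 0.07 with Copaxone, and 3, 25 and 12 were called higher. The 30 members at that brightness had medians of 0.189, 0.297 and 0.269, with 4, 19 and 7 called higher. Whether the scaling made part of this relation was not tested.

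**Figure D3:**
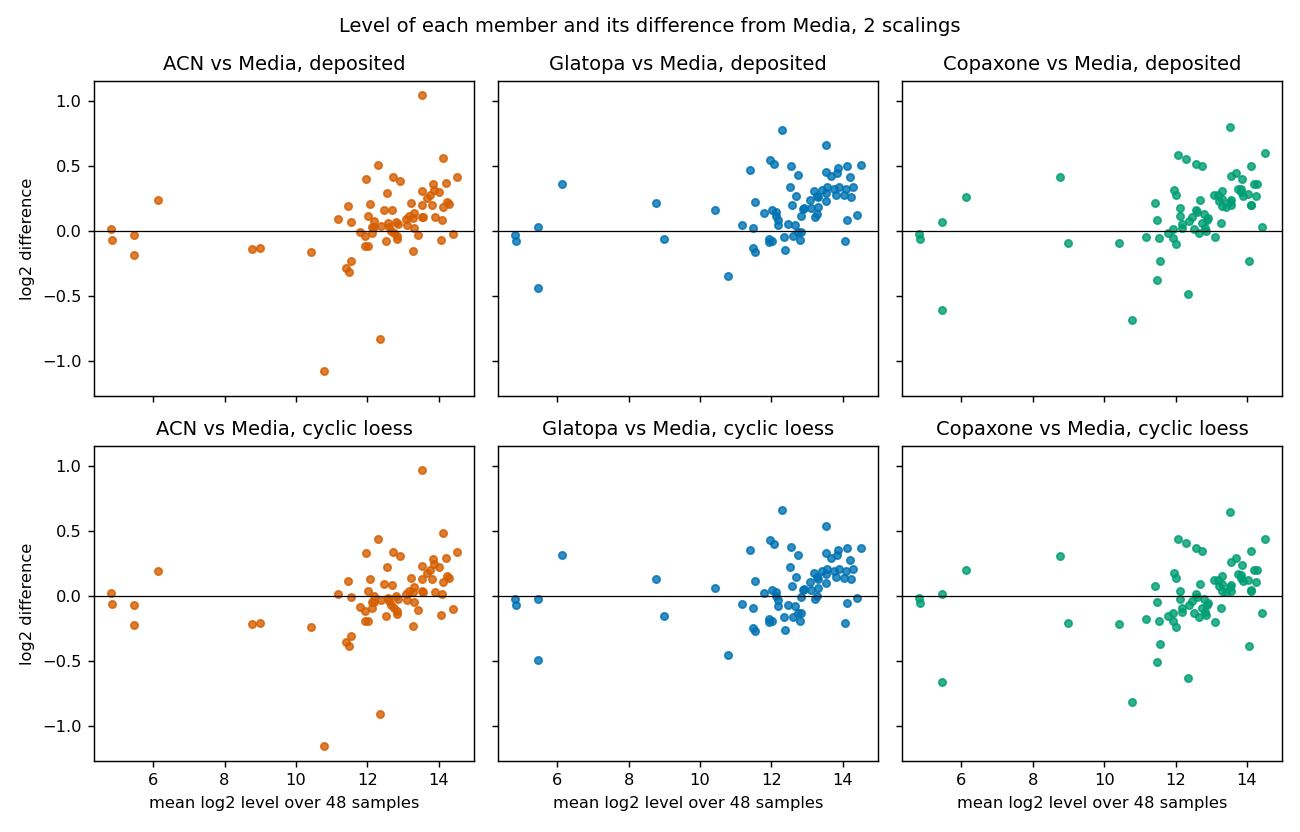
Mean log2 level of each of the 73 members over 48 samples (horizontal axis) against its log2 difference from Media (vertical axis) for ACN, Glatopa and Copaxone, from the deposited values (upper row) and after cyclic loess (lower row). Members above 13 lie mostly above 0 in the upper row, and the member medians are 0.0716, 0.177 and 0.175 there, against 0.00986, 0.0548 and 0.0262 in the lower row.

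Of the members, 48 had more than one probe, 128 probes in all, whose levels within a gene spanned a median of 1.73 log2 units. In 0 genes were probes called in opposite directions within one comparison. Of the 80 probes other than the brightest of each gene, 3 were called higher with ACN, 10 with Glatopa and 8 with Copaxone, and 3, 1 and 2 lower, with median differences of 0.03, 0.07 and 0.06. Among the 17 of them with a mean under 8, the counts were 2, 5 and 5 higher and 1, 0 and 1 lower, and the medians 0.04, 0.09 and 0.09. The 5 called higher with Glatopa and Copaxone were those of Rpl14, Rpl15, Rpl17, Rpl30 and Rpl31. These dim probes, with means between 6.54 and 7.37, rose with Glatopa and Copaxone by 0.29 to 0.50, far from the ceiling. The Rpl30 probe at 7.37 rose by 0.50 with Glatopa (SE 0.0884, adjusted p = 0.000111) and 0.49 with Copaxone (SE 0.0848, adjusted p = 1e-04), and differed by 0.34 with ACN (adjusted p = 0.0637), while the brighter probe of the gene, at 12.1, was not called. A dim probe of Rps24, at 8.16, fell by 0.65 with Glatopa and by 0.69 with Copaxone (adjusted p = 2.55e-07 and 1.92e-06) and by 0.385 with ACN (adjusted p = 0.019), whereas another Rps24 probe, at 11.6, differed by -0.04, 0.11 and -0.01. A dim Rpl22 probe, at 6.36, had differences of -0.36 with ACN (adjusted p = 0.0318), -0.26 with Glatopa (0.0545) and -0.25 with Copaxone (0.0232), opposite in sign to the bright one. These probes were singled out after their values were seen. Many ribosomal protein genes have near-identical processed copies elsewhere in the genome, and probe sequences were not used here, so which transcripts or isoforms each probe binds is uncertain.

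Some members differed far more between samples of one group than between groups. The within-group SD was 1.68 for Rps3, 1.34 for Rps24, 1.09 for Rps21, 1.00 for Rpl37, 0.826 for Rpl4 and 0.751 for Rpl35, against the median of 0.284. Rps3, which lines the mRNA entry channel, ran from 6.01 through 11.53 to 12.03 with ACN, from 8.94 through 11.49 to 11.90 with Glatopa and from 5.17 through 11.57 to 12.14 with Copaxone, against 9.24 through 11.62 to 12.00 in Media. The lowest value, 5.17, was that of Copaxone lot 9 replicate 1, while replicate 2 of the same lot had 11.81. With this spread, Rps3 log2 differences of -1.08 with ACN, -0.35 with Glatopa and -0.69 with Copaxone did not pass the test (SE 0.825, 0.424 and 0.756).

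**Figure D4:**
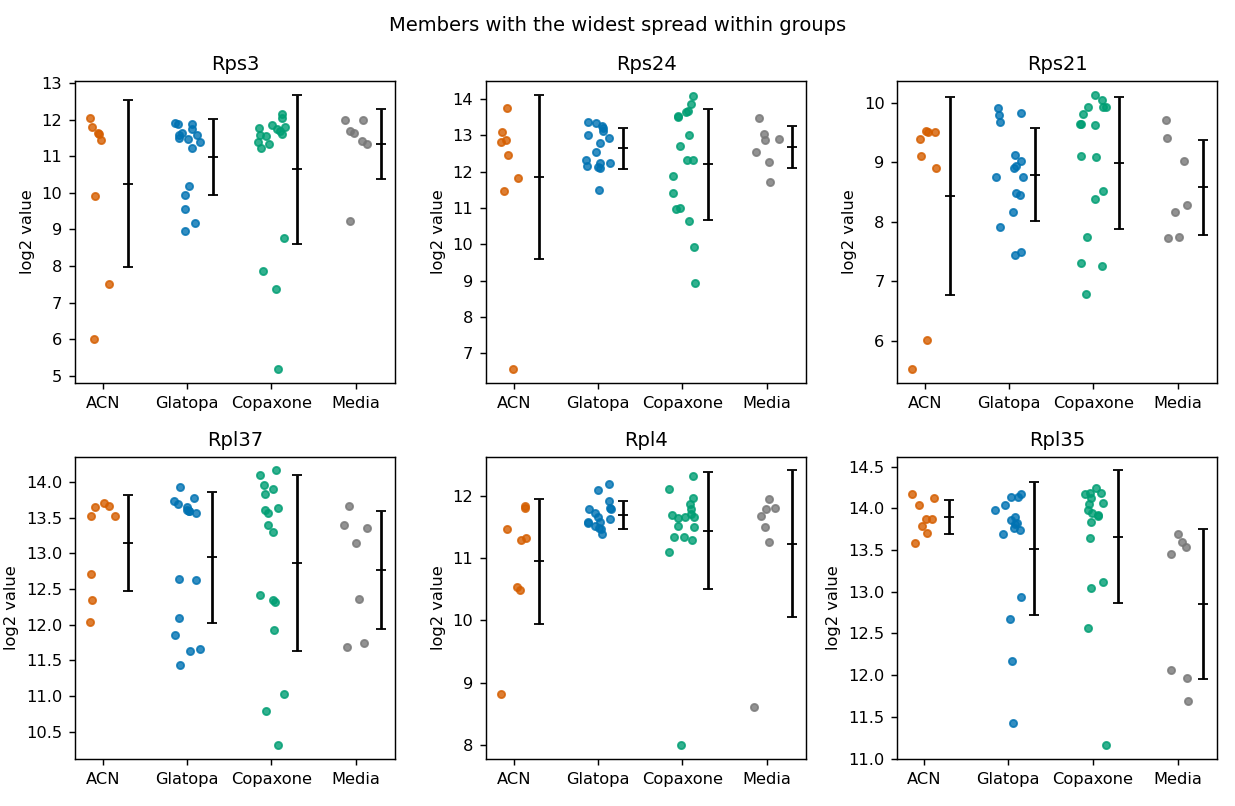
Log2 value (vertical axis, not starting at 0) of the 6 members with a wide spread within groups, Rps3, Rps24, Rps21, Rpl37, Rpl4 and Rpl35, in 8 ACN, 16 Glatopa, 17 Copaxone and 7 Media samples, with mean and SD in black. Single samples lie several units below the rest, such as Rps3 at 5.17 in 1 Copaxone sample and Rps24 at 6.55 in 1 ACN sample.

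A set of 4 arrays stood apart on the first component of the variation within groups, which held 12.0% of it: Copaxone lot 9 replicate 1 (score 0.577), ACN replicate 2 (0.35), Copaxone lot 7 replicate 1 (0.348) and Copaxone lot 3 replicate 1 (0.301). Rps3 (correlation -0.72), Rpl41 (-0.69) and Rps24 (-0.675) were low where this score was high, and Rpl19 (0.755) and Rplp0 (0.70) were high, over 48 samples that share one normalization. Without these 4 arrays, 3 members were called higher with ACN (Rpl8, Rplp0 and Rps2), 23 with Glatopa, which has none of them, and 11 with Copaxone, where Rpl32, Rpl41 and Rps2 were added and Rps12 was lost. As a description over all 48 samples, deviations from group means correlated little between members, with a median of 0.0416 over 2628 pairs and a range from -0.644 (Rpl19 and Rps3) to 0.903 (Rpl41 and Rps6).

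Between the glatiramoids, 3 pairs were compared at the same dose and time, and 0 members were called in any pair, with p adjusted over all probes within each pair. ACN is a copolymer chemically distinct from glatiramer acetate, the substance of both Glatopa and Copaxone. For Glatopa against Copaxone, 0% of all probes were called, and 1 member had an unadjusted p under 0.05, as had 4.13% of all probes. It was Rps6, 1.25-fold higher with Glatopa (0.32, 95% interval 0.06 to 0.58, adjusted p = 0.995). The 95% interval of the difference lay within 1.2-fold either way for 33 of 73 members, within 1.3-fold for 55 and within 1.5-fold for 65. Rps27, Rpl32, Rpl34 and Rps27l came next, with log2 differences of 0.15, 0.14, 0.22 and 0.25.

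For ACN against Copaxone, 0.112% of all probes were called, and 4 members had an unadjusted p under 0.05, as had 8.01% of all probes. These were Rpl10l (0.42, 95% interval 0.15 to 0.695), Rpl24 (-0.28, -0.468 to -0.0974), Rpl28 (-0.37, -0.68 to -0.06) and Rps9 (-0.21, -0.40 to -0.03), with adjusted p from 0.259 to 0.528, and the fifth smallest p was that of Rps4x (-0.19). For ACN against Glatopa, 0.68% of all probes were called, and 15 members had an unadjusted p under 0.05, as had 10.7% of all probes. Rps9 came first (-0.28, 95% interval -0.43 to -0.13, adjusted p = 0.0721), followed by Rpl24 (-0.23), Rps6 (-0.42), Rpl4 (-0.749) and Rpl14 (-0.23). The methods' t-test called 0 members in each of the 3 pairs. The 95% intervals lay within 1.5-fold for 63 members in both comparisons with ACN. The median member difference was -0.05 for ACN minus Copaxone, turning to 0.000808 after cyclic loess, and -0.09 for ACN minus Glatopa, against -0.04 after cyclic loess. A p that misses the threshold does not show that the glatiramoids act alike on these genes.

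**Figure D5:**
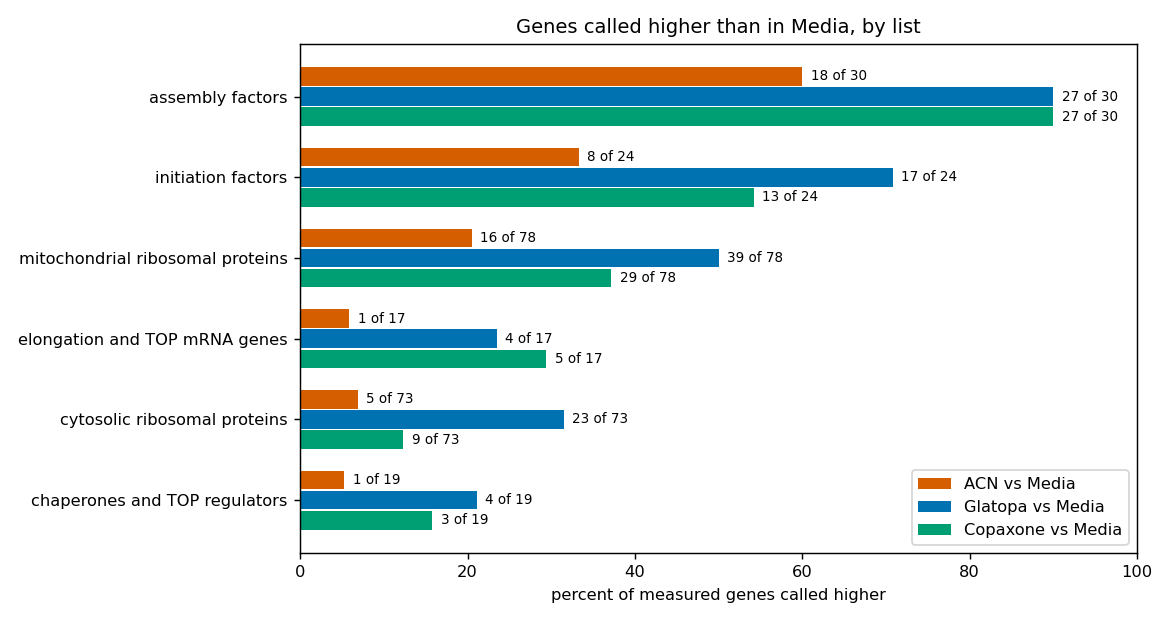
Percent of the measured genes of each list (rows) that were called higher than in Media (horizontal axis) with ACN, Glatopa and Copaxone, in the deposited values, with counts beside the bars. Assembly factors reach 60%, 90% and 90%, and the cytosolic ribosomal proteins 6.85%, 31.5% and 12.3%, and on normal scores of ranks the ACN counts of assembly factors and cytosolic ribosomal proteins were 3 and 0.

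Genes that act in ribosome assembly were mostly higher with the glatiramoids. Of 30 assembly factors, 18 were called higher with ACN, 27 with Glatopa and 27 with Copaxone, 0 were lower, and the median log2 differences were 0.444, 0.598 and 0.556. After cyclic loess 15, 24 and 22 were higher, and on normal scores of ranks 3, 23 and 22. Nop58, a core protein of the particles that methylate ribosomal RNA, rose by 0.89 with Glatopa (SE 0.0794, adjusted p = 3.83e-09) and 0.87 with Copaxone (SE 0.0826, adjusted p = 1.46e-08), and Rrs1, needed for the large subunit, rose by 0.74 with ACN (adjusted p = 0.000222). Of 24 initiation factors, 8, 17 and 13 were higher and 0, 1 and 0 lower, against 1, 13 and 9 higher on normal scores of ranks and 6, 14 and 11 after cyclic loess. Eif5a was up by 0.70, 0.90 and 0.92 with ACN, Glatopa and Copaxone. Of 78 mitochondrial ribosomal proteins, which build the separate ribosome of mitochondria, 16, 39 and 29 were higher and 0 lower, and Mrps15 rose by 0.52, 0.615 and 0.57. The counts of mitochondrial ribosomal proteins were 9, 33 and 19 after cyclic loess and 0, 28 and 18 on normal scores of ranks. Their levels lay far below the top of the scale, with list means from 7.59 to 7.98 in all samples.

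Other genes with TOP mRNAs, and regulators of them, gave lower counts. Of 17 elongation factors and other TOP genes, 1 was higher with ACN, 4 with Glatopa and 5 with Copaxone, among them Npm1, a nucleolar chaperone, at 0.70 with Glatopa and 0.59 with Copaxone (adjusted p = 6.23e-06 and 0.00122). Eef1a1, which brings transfer RNAs to the ribosome, differed by 0.22, 0.195 and 0.22 with ACN, Glatopa and Copaxone and was not called. Of 19 chaperones and regulators, 1, 4 and 3 were higher and 1, 3 and 2 lower. Myc, a transcription factor that drives ribosome production, rose by 0.42 with ACN, 0.54 with Glatopa and 0.61 with Copaxone (adjusted p = 0.00981, 1.33e-05 and 6.76e-07), and Maf1, a repressor of RNA polymerase III, had differences of -0.39, -0.50 and -0.50 (adjusted p = 0.0257, 0.00136 and 0.00564). Of 4 ribosomal protein paralogs and fusions outside the rule, only Rpl7l1 was called, at 0.62 with both Glatopa and Copaxone. The lists differ in level and spread, and the differences between them were not tested.

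Markers of the cell types in the wells moved with the treatments, and in bulk RNA fewer cells of a type and less RNA per cell cannot be told apart. Of 9 T cell markers, 0, 1 and 0 were higher and 3, 5 and 3 lower with ACN, Glatopa and Copaxone, and their mean log2 level ran from 6.99 to 7.66 with ACN, 7.18 to 7.53 with Glatopa and 6.85 to 7.48 with Copaxone, against 7.53 to 7.83 in Media. Of 9 B cell markers, 2, 3 and 2 were higher and 1, 3 and 2 lower (7.77 to 8.94, 7.71 to 8.12 and 7.71 to 8.17, against 8.02 to 8.43). Of 8 monocyte and macrophage markers 4 were lower with each (7.27 to 7.605, 6.82 to 7.29 and 6.96 to 7.39, against 7.63 to 8.16), and of 9 neutrophil markers 1, 4 and 4 (6.69 to 7.04, 6.41 to 6.78 and 6.59 to 6.83, against 6.96 to 7.13). Of 6 NK cell markers 2, 3 and 3 were higher, of 7 dendritic cell markers 1 was higher with each and 1, 2 and 1 lower, and of 5 erythroid markers 1 was lower with each. Among T cell markers Cd3d was at 9.10, 8.95 and 9.005, against 9.75 in Media. Not all of the 9 T cell markers went that way, as 2, 3 and 2 of them had positive differences from Media with ACN, Glatopa and Copaxone. The part of cell composition in the ribosomal protein differences was not tested.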

How the data were processed

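RNA of 48 wells was measured on 1-colour mouse Agilent arrays. The authors used limma for normexp background correction, a log2 transform and quantile normalization, and these deposited log2 values were used as they stand. Array values carry no sequencing depth, and the number of arrays limits the precision. The 43020 rows were reduced to 39430 probes by averaging spots wherever 10 or more shared both symbol and accession. Each pair of groups was fitted with lmFit and eBayes (limma 3.58.1, R 4.3.3) on the samples of that pair, two-sided, with Benjamini-Hochberg adjustment over all probes and a threshold of 0.05. The pipeline was tested on simulated data. Alternatives were cyclic loess, normal scores of ranks, the methods' t-test, Bonferroni adjustment, a single fit of the 4 groups, trend and robust eBayes, only probes brighter than the median probe, the mean over the probes of a gene, unaveraged spots, the replicate number and the lot as blocks, a component covariate, array weights and leaving out each sample. Fits without 4 arrays that stand apart were added after seeing the data. Named were, per comparison, up to 12 called members with the largest rise or fall or, with none called, the 5 with the smallest p, a set list of members with known roles, the 3 brightest and 3 dimmest, and up to 4 called genes of each other list; further called members are named to complete a count, and others were chosen after their values were seen. Members and gene lists were chosen with earlier results of these data known.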

Additional observations from a re-analysis of the deposited data

Results flagged for a closer look

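The 45 members named by rule were examined in the 8 ACN and the 7 Media samples, 90 groups in all. Of these groups, 20 held a single sample far from the others, where Dixon's 95% critical value alone would mark about 1 in 20 groups. Members named for other reasons were not examined, such as Rps24 with its ACN value of 6.55. The causes were not tested. In ACN samples the low values were those of replicate 2 for Rpl10a (12.23, next 13.21), Rpl41 (12.11, next 13.33), Rpl7a (10.92, next 12.42) and Rps6 (11.40, next 12.31), of replicate 5 for Rpl4 (8.813, next 10.49) and Rplp1 (12.04, next 12.64), and of single other replicates for Rpl34 (12.28, next 13.11), Rps12 (13.81, next 14.16), Rps14 (13.58, next 14.22) and Rps20 (13.74, next 14.24). ACN replicate 2 is one of the 4 arrays that stand apart. Rpl3l was high in ACN replicate 1 (4.983, next 4.856).

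In Media samples the low values were those of replicate 4 for Rpl13a (8.786, next 11.90) and Rpl4 (8.616, next 11.26), replicate 2 for Rplp1 (10.75, next 12.07) and Rps3 (9.236, next 11.34), replicate 6 for Rps27l (9.69, next 10.40) and Rps6 (11.76, next 12.35), replicate 1 for Rpl37a (12.98, next 13.85) and replicate 5 for Rpl7a (10.85, next 12.23). Rps4l was high in Media replicate 1 (5.893, next 5.491). A low Media sample enters every comparison with Media of that gene.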

How the results depend on the processing

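Counts of members called are given as ACN, Glatopa and Copaxone against Media, where the values reported were 5, 23 and 9 higher and 0, 1 and 1 lower. Cyclic loess gave 2, 6 and 1 higher and 0, 3 and 3 lower, normal scores of ranks 0, 6 and 1 higher and 0 lower, and Bonferroni adjustment 0 in all. Fitting all 4 groups gave 1 higher with ACN and 14 with Copaxone, testing only probes brighter than the median probe and the component covariate each gave 14 with Copaxone, and trend and robust eBayes gave 2 with ACN and 15 with Glatopa. The methods' t-test gave 2 with ACN, the lot as a block 0 with ACN, and the fit without the 4 arrays, added after seeing the data, 3 with ACN. The mean over the probes of a gene gave 14 higher and 0 lower with Glatopa, and turned the sign of Rps12 (-0.0105) and Rps29 (-0.0504) with Copaxone and of Rpl11 (-0.0288), Rpl22 (-0.0141) and Rps12 (-0.346) with Glatopa. Between ACN and Glatopa, 0 in the values reported, the brighter probes gave 1 and the lot as a block 5 (estimated correlation -0.048). The ACN samples, from 1 lot, formed a single block, so the lot counts with ACN cannot separate lot from treatment. Leaving out 1 sample gave 2 to 5, 16 to 24 and 7 to 14 higher, 0 to 0, 0 to 1 and 1 to 1 lower, and 0 to 1 between ACN and Glatopa (1 without Glatopa lot 2 replicate 4). The cause of these changes was not tested.

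With the replicate number as a block, 3, 10 and 0 were higher and 0 lower, and 2 were called between ACN and Glatopa. The block held 14, 20 and 19 samples of 15, 23 and 24. Deviations from group means of same-numbered ACN and Media samples correlated between -0.0351 and 0.078. Copaxone and Glatopa samples were not checked in this way, and the Copaxone arrays that stand apart were all replicate 1 of their lots. The check compares equal numbers only, and cannot show whether low and high numbers differ within a group. In Media, Rpl8 lay between 13.66 and 13.71 in replicates 1 to 3 and between 13.22 and 13.50 in replicates 4 to 7. Rpl10 and Rps29 separated likewise and Rpl10l in the opposite direction, while Rplp0, Rplp2, Rps2 and Rpl24 overlapped. This was seen in the values and was not tested. The labels do not say what the number stands for. Limits: dim probes may lie near background, bright ones near the ceiling of the scale, and both cell types share one RNA.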
